A study of Drosophila melanogaster with 24 samples.

Results

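Gene expression was compared between F2 flies with a complete cold history and F2 flies with a complete control history. F2-18-18 flies hatched from bleach-washed eggs of F1 flies kept at 18 °C and grew up on food carrying the faeces, and so the microbiome, of F1 males kept at 18 °C. F2-25-25 flies took both the germline and the microbiome from F1 flies kept at 25 °C. The eggs were laid at the temperature of their parents and then moved to 25 °C, where the F2 flies of both groups grew up. The groups thus differed in the temperature of the parents, in that of the egg before it was moved, and in the bacteria received. The flies were of 1 isogenic white-eyed stock, and a library holds the total RNA of all tissues of 20 males collected within 0 to 16 h of emergence. The 8 libraries of the comparison, replicates 1 to 4 in each group, were selected by their labels from the 24 samples of the series, of which 22 had values. Germline, egg temperature and microbiome changed together between the 2 groups, so their parts cannot be told apart in this comparison.

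Young adult flies still live on what the larva stored. In the larva the fat body, an organ with the tasks of liver and adipose tissue, secretes storage proteins, lipid carriers, defence proteins and peptide hormones into the haemolymph. Storage proteins are taken up again before metamorphosis and supply amino acids, and remnants of the larval fat body persist in the newly emerged adult. The fat body also carries much of the humoral defence of the fly and reports its nutritional state to other tissues.

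The deposited values are normalised read counts per gene, adjusted by the authors to a common library size, and they sum to between 3702933 and 4398050 over the 22 libraries. They were compared as log2(value + 2) with limma, a linear model that moderates the spread of each gene with that of all genes, and a gene was called at a Benjamini-Hochberg adjusted p under 0.05 over the 11314 genes that reached a value of 10 in 3 or more libraries. For genes with low values this log2(value + 2) scale gives fold changes that are too small. In 7150 of these genes, replicates 3 and 4 of F2-25-25 hold the average of replicates 1 and 2 shifted by an integer. These values were treated as missing, so that F2-25-25 had 2 measured values in 7150 genes and 4 in the 4164 others, which are the genes with low values (median 26.6 against 200.9). Over the 4164 genes, the spread of the log2 ratio between 2 libraries of a group was 0.408 to 0.443 in F2-18-18 and 0.432 to 0.602 in F2-25-25. Nothing in the labels says whether replicates shared bottles. The p-values measure the spread between libraries within the 6 groups of the series, over 22 libraries, and not only within the 2 groups compared. As males, the libraries carried high levels of 9 testis markers (summed value 9268 to 10770) and 10 accessory gland markers (6292 to 8655), whereas 4 of 13 yolk, chorion and vitelline membrane markers were in the table, with a summed value of 27.5 to 34.5.

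Of the 11314 genes tested, 329 were called (2.91%), 252 higher (2.23%) and 77 lower (0.681%) in F2-18-18. The increases were larger than the decreases, with a median log2 fold change of 0.89 against -0.54 and with a log2 fold change of at least 1 in 105 of the genes that rose and in 1 of those that fell. At least 2 was reached by 35 of the genes that rose and at least 3 by 9. In F2-25-25 only 2 values stand behind 308 of the calls, 236 higher and 72 lower, which are 4.31%, 3.3% and 1.01% of the 7150 genes of this kind. Among the 4164 genes with 4 values 21 were called (0.504%). The measured values of the groups did not overlap in 2970 genes (26.3%), in 38.7% of those with 2 values and 4.8% of those with 4, among them 250 of the genes that rose and all 77 that fell. The calls lean on few libraries. In the 7150 genes with 2 values, leaving out F2-25-25 replicate 1 or 2 leaves 1 value in that group, so its own spread cannot be seen. Without F2-25-25 replicate 1 only 2 genes passed, dgrn and CG5966, without replicate 2 of that group 66 passed, and without F2-18-18 replicate 1 155 passed, although the 329 genes kept their direction in each of these fits. The kept direction says little, since the genes were chosen by this change and most had groups that did not overlap. Scaled to equal library totals, which moved the median of all genes to -0.11, 179 genes were higher and 248 lower.

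The storage proteins stood out. All 6 tested genes of the list, the larval serum proteins Lsp1alpha, Lsp1beta, Lsp1gamma and Lsp2, the receptor for their uptake Fbp1, and Fbp2, rose in F2-18-18, with a median log2 fold change of 3.05 against -0.01 over all genes tested. Fbp1 (chromosome 3L, 14094589 to 14098053) had values of 47075, 42584, 45885 and 44737 in F2-18-18 replicates 1 to 4, and of 5971 and 5928 in F2-25-25 replicates 1 and 2 (log2 fold change 2.92, standard error 0.56, limma, adjusted p = 0.00663). Lsp2 (chromosome 3L, 12129393 to 12131869) had 23298, 18374, 22126 and 22012 against 2334 and 2355 (log2 fold change 3.19, standard error 0.55, limma, adjusted p = 0.00366). Every F2-18-18 library lay far above both measured F2-25-25 libraries, and replicate 2 was the lowest of its group for each of these genes. Lsp1alpha (chromosome X, 12490291 to 12492982) had the largest ratio of the 6, 13.1, from 7662, 6365, 7604 and 7288 against 578 and 525 (log2 fold change 3.70, standard error 0.63, limma, adjusted p = 0.00366). Lsp1beta (chromosome 2L, 898500 to 901316) had 20275, 15873, 18554 and 17634 against 1953 and 1915 (log2 fold change 3.22, limma, adjusted p = 0.00409). The same pattern was seen in Lsp1gamma and Fbp2, with 9156 ± 1266 (SD, n = 4) against 1199 ± 46.1 (SD, n = 2) and 5603 ± 271 (SD, n = 4) against 740.0 ± 2.89 (SD, n = 2), and log2 fold changes of 2.92 and 2.92 (limma, adjusted p = 0.00433 and 0.00724). Summed over the 6 genes, the values made up 2.26% to 2.81% of all values in F2-18-18 and 0.336% to 0.344% in F2-25-25. In libraries of whole flies, more cells of a type and more RNA per cell cannot be told apart. The adjusted p of the 6 genes depended on the libraries that set the spread. In limma it was 0.00366 to 0.00724 as reported and 1.04e-09 to 2.21e-07 with only the 8 libraries. It was 5.41e-07 to 3.98e-06 without 1 crossed library that stood apart, a fit added after the values had been seen. The adjusted p of the 6 genes was 0.107 to 0.141 without F2-25-25 replicate 1 and 0.0511 to 0.0873 without F2-25-25 replicate 2.

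**Figure D1:**
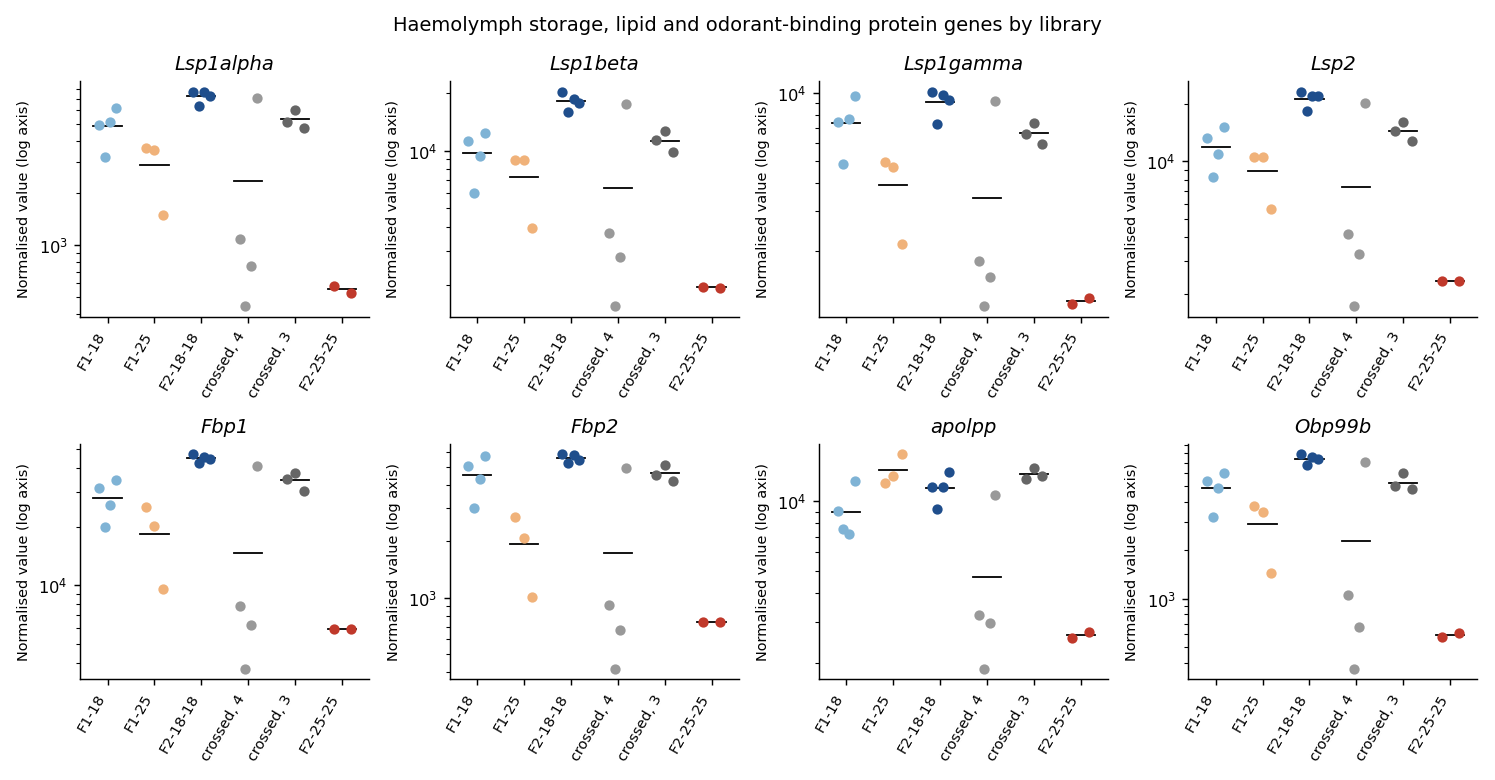
Normalised values (log axis) of the 6 storage protein genes, the lipid carrier apolpp and Obp99b in each library of the 6 groups, with calculated values left out; points are libraries and lines group means. In each panel the 4 F2-18-18 libraries lie together above both F2-25-25 libraries, for Fbp1 at 42584 to 47075 against 5928 and 5971, and 1 library of the crossed group of 4 lies apart from the others of its group.

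The other groups of the series place these levels. Fbp1 ranged over 19865 to 34962 in the 4 F1-18 libraries and over 9525 to 25286 in the 3 F1-25 libraries, so that F2-18-18 lay above and F2-25-25 below every library of the previous generation. The F2 groups that crossed the sources of germline and microbiome are given here by their size, because the sources differ on them. The sample labels give the crossed group of 3 the control germline and the cold microbiome, whereas the column names of the table, read as the study spells them out, give it the reverse. The study's own list of libraries has 3 with the cold germline and the control microbiome, and 4 of the opposite kind. In the crossed group of 3 libraries Fbp1 was 30679 to 37970, and in the crossed group of 4 it was 7782, 3719 and 6278 in replicates 1 to 3 and 40990 in replicate 4. For apolpp the F1 libraries held 7175 to 12184 at 18 °C and 11935 to 15900 at 25 °C, so that F2-18-18 lay within the F1 range and F2-25-25 below it. Without the replicate 4 library of the crossed group of 4, a fit added after the values had been seen, 383 genes were called, 325 of them among the 329.

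Genes of lipid transport rose in part. Of the 20 genes tested on the list of lipid transport and lipid enzymes, 5 rose and none fell (25%, against 2.91% of all genes). The median log2 fold change was 0.46 against -0.01 over all genes. Only 2 measured values in F2-25-25 stood behind 16 of the 20, a kind of which 4.31% were called. The apolipophorin precursor apolpp (chromosome 4, 1060969 to 1077273), the lipid carrier of the haemolymph, had values of 11476, 9203, 11449 and 13412 in F2-18-18 and of 2550 and 2724 in F2-25-25 (log2 fold change 2.10, standard error 0.40, limma, adjusted p = 0.00587). Mtp, which loads lipid onto this carrier, had 206, 236, 200.3 and 214 against 110.0 and 116 (log2 fold change 0.91, limma, adjusted p = 0.0197). Both genes were higher in each F2-18-18 library than in either F2-25-25 library. Lsd-1, a perilipin that coats lipid droplets, had 491, 499, 511 and 465 against 218 and 248 (log2 fold change 1.07, limma, adjusted p = 0.02). Npc2g, a gene of the NPC2 family of sterol-binding proteins, had 269.6, 237, 206 and 229.7 against 79.6 and 75.9 (log2 fold change 1.57, limma, adjusted p = 0.00477). FASN1, the fatty acid synthase, was not called, with 3559 ± 359 (SD, n = 4) against 2989 ± 78.8 (SD, n = 2) and a log2 fold change of 0.25. Without F2-25-25 replicate 1 the 4 named genes that rose had an adjusted p of 0.11 to 0.274, and without replicate 2 of 0.0692 to 0.128. Without F2-18-18 replicate 1 the highest adjusted p was 0.0531.

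Peptide hormones and enzymes of amino acid and sugar metabolism were also among the genes that rose. On the list of insulin and nutrient response genes, 1 of 14 was called (7.14%, against 2.91% of all genes). It was Ilp6 (chromosome X, 2331493 to 2334658), an insulin-like peptide made by the fat body, with 143, 117, 144 and 151 against 36.1 and 40.8 (log2 fold change 1.79, standard error 0.30, limma, adjusted p = 0.00331). The following genes were chosen after their values had been seen. CCHa2, a peptide hormone of gut and fat body that responds to feeding, had 599.9, 496, 675 and 703 against 178 and 247 (log2 fold change 1.54, limma, adjusted p = 0.00558). The growth-blocking peptide gene Gbp3 had 230.4, 204, 197 and 195 against 32.2 and 45.1 (log2 fold change 2.38, limma, adjusted p = 0.00283). Their groups did not overlap, and F2-25-25 replicate 1 was the lower of the pair in all 3 genes. Gbp1, of the same family, rose as well (log2 fold change 1.20, limma, adjusted p = 0.0152), and so did Lst, encoding the hormone limostatin, which restrains insulin release (log2 fold change 1.26, limma, adjusted p = 0.00266). Jhe, the esterase that degrades juvenile hormone, had 248, 219, 247 and 210.2 against 66.8 and 86 (log2 fold change 1.58, limma, adjusted p = 0.0179). Of these 6 genes 5 passed without F2-25-25 replicate 2 and none without replicate 1, where the adjusted p was 0.0872 to 0.326.

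Among metabolic enzymes, Pepck2, a phosphoenolpyruvate carboxykinase, had 115, 97.6, 116 and 107 in F2-18-18 and 17 and 18.6 in F2-25-25 (log2 fold change 2.48, limma, adjusted p = 0.00624). Mal-A5, 1 of 14 genes tested on the list of maltases and amylases and the one called (7.14%, against 2.91% of all genes), had 783, 709, 679.5 and 742 against 252 and 269 (log2 fold change 1.47, limma, adjusted p = 0.00444). These groups were separated by a wide gap. Cth, a cystathionine gamma-lyase of the transsulfuration pathway, and Paics, an enzyme of purine synthesis, rose by log2 fold changes of 1.22 and 1.14 (limma, adjusted p = 0.00414 and 0.024). Hn, the phenylalanine hydroxylase and the 1 called of 17 tanning and pigment genes (5.88%), rose by 0.84 (limma, adjusted p = 0.0127). Pepck2, Cth and Paics were chosen after their values had been seen. None of these 5 enzymes passed without F2-25-25 replicate 1 (adjusted p 0.107 to 0.265) or without replicate 2 (0.0525 to 0.153). Also chosen late were 3 genes of lysosomal enzymes. The neighbouring alpha-mannosidase genes LManI and LManII, 417 bases apart on chromosome 2L, had log2 fold changes of 1.25 and 1.27 (limma, adjusted p = 0.0353 and 0.00739), and DNaseII had 197, 207, 199.6 and 180.1 against 64.8 and 95.1 (log2 fold change 1.29, limma, adjusted p = 0.00596). The 3 genes did not pass without F2-25-25 replicate 1 (adjusted p 0.163 to 0.276).

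Stress genes were split. Of 4 Turandot genes, which encode secreted stress proteins, TotA and TotB rose and TotC and TotX were not called. TotA (chromosome 3R, 20871036 to 20871700) had values of 304, 359, 402 and 324 in F2-18-18 and 48.9 and 48.7 in F2-25-25 (log2 fold change 2.77, standard error 0.54, limma, adjusted p = 0.00688). TotB, which lies beside it, has 4 measured values in each group, 13, 32.2, 24.6 and 12.2 against 0.986, 1.46, 8.24 and 1.51 (log2 fold change 2.26, standard error 0.50, limma, adjusted p = 0.0131). F2-25-25 replicate 3 was the highest of its group in TotB but still below F2-18-18. TotC had 0.104, 1.53, 1.44 and 2.6 against 0.086, 0.523, 44.9 and 0.474, and TotX 1.64, 5.58, 2.94 and 4.23 against 0.518, 1.83, 29.8 and 3.37. In both of these genes replicate 3 of F2-25-25 was above every other library, and their log2 fold changes of -0.59 and -0.24 turned to 0.49 and 0.53 without it. Of 21 heat shock genes tested, 2 rose and none fell (9.52%, against 2.91% of all genes). They were the neighbouring small heat shock genes Hsp23 and Hsp27, with 1873, 1770, 1971 and 1954 against 359 and 415 for Hsp23 (log2 fold change 2.29, limma, adjusted p = 0.00596) and 187 ± 24.6 (SD, n = 4) against 97.1 ± 9.53 (SD, n = 2) for Hsp27 (log2 fold change 0.93, limma, adjusted p = 0.0353). Hsp83, the most abundant of those not called, had 7013 ± 269.7 (SD, n = 4) against 4925 ± 291 (SD, n = 2). Among 3 genes linked to cold acclimation, regucalcin rose (log2 fold change 0.96, limma, adjusted p = 0.0467), while Fst, encoding Frost, had 132, 92.8, 107 and 160.2 against 132 and 126 and smp-30 469, 484, 461 and 459 against 319 and 319.7, without a call. TotA, TotB, Hsp23, Hsp27 and regucalcin did not pass without F2-25-25 replicate 1 (adjusted p 0.128 to 0.337), nor without replicate 2 (0.0617 to 0.223). Without single F2-18-18 libraries TotB was lost once (replicate 2), Hsp27 for replicates 1, 3 and 4, and regucalcin for each of the 4, with an adjusted p of up to 0.123. Hsp27 and regucalcin were also lost with equal library totals, and regucalcin with robust moderation, in all in 7 and 10 of 23 alternatives.

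Single defence genes of the haemolymph rose. Of 20 antimicrobial peptide genes tested 1 was called (5%, against 2.91% of all genes), and of 12 peptidoglycan recognition proteins none. Above 0 lay 15 of the 20 and 8 of the 12, with medians of 0.43 and 0.29 against -0.01 over all genes. Only 7 of the 20 and 3 of the 12 had 2 measured values in F2-25-25. The others had 4, a kind of which 0.504% were called, so few calls say little about these families. Drs, the antifungal peptide drosomycin, had 203, 263, 199 and 193 against 63.3 and 83.1 (log2 fold change 1.53, standard error 0.25, limma, adjusted p = 0.00298). The other genes of this paragraph were chosen after their values had been seen. GNBP3, a receptor for fungal glucans, had 299, 247, 252 and 292 against 102 and 99.5 (log2 fold change 1.41, limma, adjusted p = 0.0155). Hayan, a serine protease of the melanisation cascade, had 82.3, 78.4, 58.3 and 71.2 against 27.9 and 33 (log2 fold change 1.19, limma, adjusted p = 0.0167). The groups were separate in all 3 genes, with F2-18-18 replicate 2 the highest library for Drs and replicate 3 the lowest for Hayan. The clotting factor gene fon, fondue, had 3561, 3305, 2613 and 2238 against 1023 and 948 (log2 fold change 1.55, limma, adjusted p = 0.0104), and NimC2, of the Nimrod family of haemocyte receptors, 279, 216, 243 and 241 against 43.2 and 32.1 (log2 fold change 2.64, limma, adjusted p = 0.00934). SPH93, a serine protease homolog, lies 747 bases from CG18563, which also rose, and had 74.6 ± 5.76 (SD, n = 4) against 19.5 ± 6.76 (SD, n = 2) (log2 fold change 1.87, limma, adjusted p = 0.00669). The summed value of 4 haemocyte markers was 351 to 492 in F2-18-18 and 269.5 to 281 in F2-25-25, with none of the 4 called, and their part in these differences was not tested. None of the 6 genes passed without F2-25-25 replicate 1 (adjusted p 0.11 to 0.264), and without replicate 2 of that group 2 passed.

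A few detoxification genes rose. Of 68 cytochrome P450 genes tested 5 rose and none fell (7.35%), and of 30 glutathione transferases 2 rose (6.67%), against 2.91% called of all genes. None of 28 UDP-glycosyltransferases was called, with 13 above and 15 below 0. Cyp4d1 had 106, 96.5, 126 and 124 against 9.61 and 22.4 (log2 fold change 2.77, standard error 0.49, limma, adjusted p = 0.00439), and Cyp309a1 238, 218, 244 and 250.1 against 58.1 and 79.1 (log2 fold change 1.78, limma, adjusted p = 0.00298). Cyp4e2 and Cyp9b2 rose by log2 fold changes of 0.87 and 0.83 (limma, adjusted p = 0.00477 and 0.00709). The medians of the cytochrome P450 and glutathione transferase lists were 0.11 and 0.25 against -0.01 over all genes, and 0.01 and 0.14 against -0.11 with equal library totals. GstD1, a glutathione transferase of the oxidative stress response, had 1150, 1097, 963 and 1010 against 639 and 731 (log2 fold change 0.62, limma, adjusted p = 0.00536), and GstE12 rose by 0.59. None of these 6 genes passed without F2-25-25 replicate 1 (adjusted p 0.11 to 0.178), and 3 passed without replicate 2.

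Several of the largest increases were in a cuticle gene, in odorant-binding protein genes and in genes known by a number. CG13962 (chromosome 2L, 19813704 to 19814532) had the largest log2 fold change, with 253, 223, 269 and 264 against 10.4 and 16.4 (log2 fold change 4.07, limma, adjusted p = 0.00496). CG34166 had 3279, 2047, 2515 and 2684 against 148 and 229.6 (log2 fold change 3.80, limma, adjusted p = 0.00278). Cpr49Ac (chromosome 2R, 12386666 to 12390057), a cuticle protein with a chitin-binding domain and the only one called of 31 tested genes of its family (3.23%, against 2.91% of all genes), had 762, 589, 777 and 717 against 38.4 and 68.2 (log2 fold change 3.73, limma, adjusted p = 0.00116). In each of the 3 genes F2-25-25 replicate 1 was lower than replicate 2, and no F2-18-18 library came near either. Obp99b (chromosome 3R, 29716254 to 29716896), of the odorant-binding protein family, had 7875, 6760, 7581 and 7386 against 575 and 610.1 (log2 fold change 3.64, standard error 0.67, limma, adjusted p = 0.00488). Obp83ef was the other of 29 tested genes of that family to rise (log2 fold change 1.42, limma, adjusted p = 0.00477). Of the family 6.9% were thus called, against 2.91% of all genes. CG18563 had 215, 171, 193 and 183 against 13.7 and 26.2 (log2 fold change 3.19, limma, adjusted p = 0.00988), and CG5773 279, 207, 225 and 217 against 18.6 and 30.5 (log2 fold change 3.16, limma, adjusted p = 0.00333). The imaginal disc growth factors Idgf6 and Idgf4, chitinase-like secreted proteins and the 2 called of 29 genes tested for chitin binding and formation (6.9%, against 2.91% of all genes), rose by log2 fold changes of 1.27 and 0.84 (limma, adjusted p = 0.00504 and 0.00753). Further genes chosen after their values had been seen were Ama, encoding the adhesion protein amalgam, with 194, 127, 159 and 158 against 19.8 and 19.8 (log2 fold change 2.87, limma, adjusted p = 0.00409), and the tetraspanin genes Tsp42Ep and Tsp42Ek, with log2 fold changes of 2.90 and 2.49. CG16704 and CG31778, chosen in the same way, had log2 fold changes of 1.91 and 2.01. CG5966, likewise chosen late as 1 of the 2 genes that passed without F2-25-25 replicate 1, had 525, 597, 525 and 416 against 273 and 216 (log2 fold change 1.07, limma, adjusted p = 0.00239). Without F2-25-25 replicate 1 none of the first 9 genes of this paragraph passed (adjusted p 0.0872 to 0.241), and 3 passed without replicate 2.

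**Figure D2:**
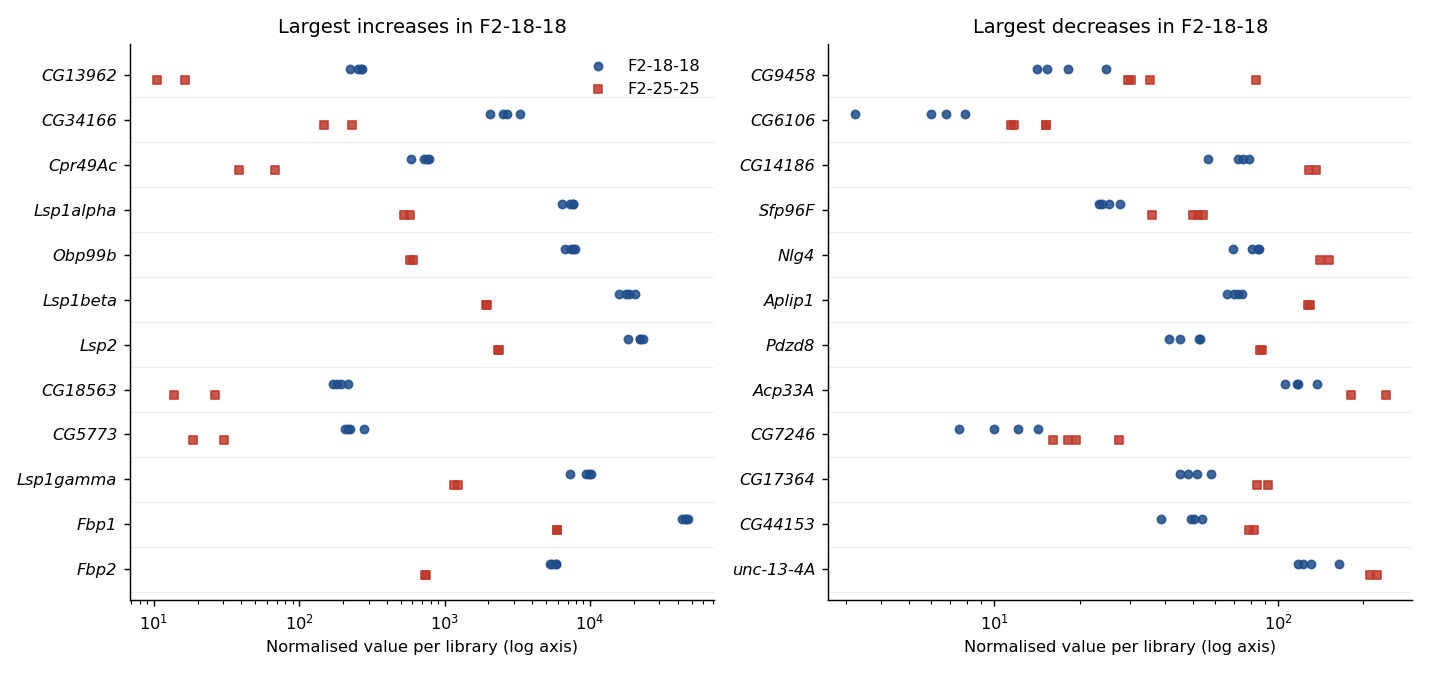
Normalised value per library (log axis) of the called genes without overlap that changed most, 12 upwards and 12 downwards; circles are the 4 F2-18-18 libraries and squares the measured F2-25-25 libraries. The increases span a wider gap than the decreases, with log2 fold changes of 2.92 to 4.07 on the left and of -1.11 to -0.70 on the right.

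The genes that fell included components of photoreceptors. All 25 tested phototransduction genes had a log2 fold change below 0, against 5773 of all 11314 genes tested. Their median was -0.29 against -0.01 over all genes. Called lower were 4 (16%), against 0.681% of all genes and 1.01% of those with 2 values in F2-25-25, as 23 of the 25 had. Arr2 and Arr1 encode the arrestins that shut off rhodopsin. Arr2 (chromosome 3L, 8647261 to 8648936) had values of 2027, 1990, 2003 and 1995 in F2-18-18 and of 2784 and 2909 in F2-25-25 (log2 fold change -0.51, standard error 0.10, limma, adjusted p = 0.00789). Arr1 had 1258, 1383, 1280 and 1273 against 1748 and 1687 (log2 fold change -0.40, limma, adjusted p = 0.0291). The light-gated cation channel gene trp had 1296, 1357, 1372 and 1350 against 1790 and 1926 (log2 fold change -0.47, limma, adjusted p = 0.0159). The groups did not overlap in any of these, and the 4 F2-18-18 libraries were close together. The fourth was ninaC, a myosin of the photoreceptor, with 2135, 2296, 2299 and 2287 against 3097 and 3265 (log2 fold change -0.50, limma, adjusted p = 0.0291). The main rhodopsin gene ninaE was not called, with 4670, 5014, 4951 and 4902 against 5166 and 5046, and a log2 fold change of -0.06 (limma, adjusted p = 0.822). The summed value of 5 photoreceptor markers was 8644 to 8973 in F2-18-18 and 10560 to 10650 in F2-25-25, with 2 of the 5 called, and the part of photoreceptor number was not tested. None of the 4 genes passed without F2-25-25 replicate 1 (adjusted p 0.124 to 0.296) or without replicate 2 (0.117 to 0.222), and without single F2-18-18 libraries ninaC was lost for replicates 1, 2 and 3 and Arr1 for replicates 1, 3 and 4 (adjusted p up to 0.0871). Arr1 was also lost with the replicate number as a block (limma, adjusted p = 0.057).

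All 12 tested genes of the neuronal list lay below 0, against 5773 of all 11314 genes tested. Their median was -0.41 against -0.01 over all genes, and all 12 had 2 values in F2-25-25. Called lower was 1 of the 12 (8.33%), against 0.681% of all genes and 1.01% of those with 2 values. This was VGlut, the vesicular glutamate transporter, with 393, 475, 464 and 472 against 650.3 and 657 (log2 fold change -0.54, standard error 0.12, limma, adjusted p = 0.019). Syt1, a calcium sensor of synaptic vesicles, was not called, with 1404, 1360, 1456 and 1539 against 1570 and 1875. Genes named by the size of their decrease were Nlg4 (chromosome 3R, 20204809 to 20245473), a neuroligin of the synaptic membrane, with 85.4, 69.5, 81 and 84.8 against 151 and 140.4 (log2 fold change -0.85, limma, adjusted p = 0.00624), and Aplip1, a scaffold of axonal transport, with 74.6, 70.1, 66 and 72.2 against 128 and 129.6 (log2 fold change -0.85, limma, adjusted p = 0.00278). Pdzd8, CG14186, CG17364, CG44153 and unc-13-4A were also among the 12 largest decreases, with log2 fold changes of -0.89 to -0.70. The remaining genes of this paragraph were chosen after their values had been seen, and do not say how many genes of their kind were called. The transmitter receptor gene GABA-B-R2 had 175, 177, 173 and 141 against 258 and 267 (log2 fold change -0.66, limma, adjusted p = 0.0159), and its partner GABA-B-R1 95, 118, 117 and 141 against 164 and 189.8 (log2 fold change -0.59, limma, adjusted p = 0.0374). The dopamine receptor gene Dop1R1 had 121, 145, 141 and 172 against 235 and 215 (log2 fold change -0.64, limma, adjusted p = 0.0325). In none of these receptor genes did the groups overlap, and F2-18-18 replicate 4 was the highest of its group in GABA-B-R1 and Dop1R1. Dop2R and nAChRbeta2, for another dopamine receptor and a nicotinic acetylcholine receptor subunit, fell by 0.61 and 0.56 on the log2 scale. The potassium channel genes Shal and Irk1, the vesicle fusion gene comt, CaMKII, Syt7 and the adenylate cyclase gene Ac3 had log2 fold changes of -0.68 to -0.42. The summed value of 4 neuron markers was 2903 to 3152 in F2-18-18 and 3374 to 3916 in F2-25-25, with none called, and the part of neuron number was not tested. Without F2-25-25 replicate 1 none of these 14 called genes passed (adjusted p 0.106 to 0.379), without replicate 2 of that group 1 passed, and without F2-18-18 replicate 1 5 passed.

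Of 59 accessory gland and seminal fluid genes tested 2 fell and 1 rose (5.08% called, against 2.91% of all genes), with a median log2 fold change of -0.16, and of 35 testis genes 3 fell (8.57%, against 0.681% of all genes), with a median of -0.09. Sfp96F (chromosome 3R, 25830061 to 25830228), a seminal fluid protein, had 4 measured values in both groups, 23.3, 25.3, 23.9 and 27.8 against 52.1, 50.0, 54.4 and 36 (log2 fold change -0.87, standard error 0.15, limma, adjusted p = 0.00331). Acp33A, a peptide of the accessory gland, had 105, 118, 116 and 137 against 239.9 and 181 (log2 fold change -0.80, limma, adjusted p = 0.00439). Dup99B, the relative of sex peptide from the ejaculatory duct, rose, with 369, 317, 336 and 450.3 against 188 and 276 (log2 fold change 0.67, limma, adjusted p = 0.0353). The change of Dup99B fell to 0.40 without F2-25-25 replicate 1, where it was not called, and ranged up to 0.99, and it was also lost with equal library totals and without F2-18-18 replicate 1 or 4. Thus the 3 called seminal fluid genes moved in both directions, while 44 of the 59 tested lay below 0 and 15 above. Acp36DE, an abundant one, had overlapping values of 2923, 2845, 3691 and 4227 against 3982 and 4149. The sperm tail genes Mst84Dd, Mst87F and Mst84Da fell by 0.56, 0.44 and 0.36 on the log2 scale (limma, adjusted p = 0.0167, 0.0233 and 0.0189). Only uniquely aligned reads were counted, so that reads shared by similar copies are left out. S-Lap1, a leucyl aminopeptidase of sperm chosen after its values had been seen, had 5049 ± 259 (SD, n = 4) against 6760 ± 719.9 (SD, n = 2) (log2 fold change -0.42, limma, adjusted p = 0.0362). Without F2-25-25 replicate 1 none of these 7 genes passed (adjusted p 0.0872 to 0.508), and without F2-18-18 replicate 1 3 passed.

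Of 85 cytosolic ribosomal protein genes 3 rose (3.53%), RpL28, RpS29 and RpS13, by log2 fold changes of 0.59, 0.54 and 0.53, and the median of the list was 0.20 against -0.01 over all genes, or 0.09 against -0.11 with equal library totals. Of 88 nuclear genes for oxidative phosphorylation 2 were called (2.27%), against 2.91% of all genes. In F2-25-25 only 2 measured values stood behind 84 of these 88 and 81 of the 85 ribosomal protein genes, a kind of which 4.31% were called. UQCR-Q rose (log2 fold change 0.54, limma, adjusted p = 0.0353) and COX7AL fell (log2 fold change -0.54, limma, adjusted p = 0.0214). No gene was called among 24 Jonah and trypsin proteases of the gut, 26 contractile genes of muscle, 46 proteasome subunits, 21 piRNA pathway genes, 23 Polycomb and heterochromatin regulators, 9 clock genes or 11 mitochondrially encoded genes. None was called either of 8 Tweedle, Lcp and Ccp cuticle genes, 3 Osiris genes, 3 digestive lysozymes, 7 gut redox genes, 22 cell cycle genes, 5 dosage compensation genes and 2 yolk and eggshell genes. Only 4 of the gut proteases, 1 of the piRNA genes and no Osiris or lysozyme gene had 2 measured values in F2-25-25. Their other members had 4, a kind of which 0.504% were called, against 2.91% of all genes. The absence of calls therefore says little about these lists. The gut proteases had a median of -0.32 and alphaTry, the most abundant, overlapped between the groups, with 452, 442, 474 and 623 against 619 and 667. Of the ecdysone response regulators and haemocyte genes 1 each rose, the transporter gene E23 (log2 fold change 0.52, limma, adjusted p = 0.0482) and the GATA factor gene srp (log2 fold change 0.61, limma, adjusted p = 0.0367). Mur18B was the only one of 13 peritrophic matrix and mucin genes to be called (log2 fold change 0.48, limma, adjusted p = 0.0386), which is 7.69% against 2.91% of all genes.

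**Figure D3:**
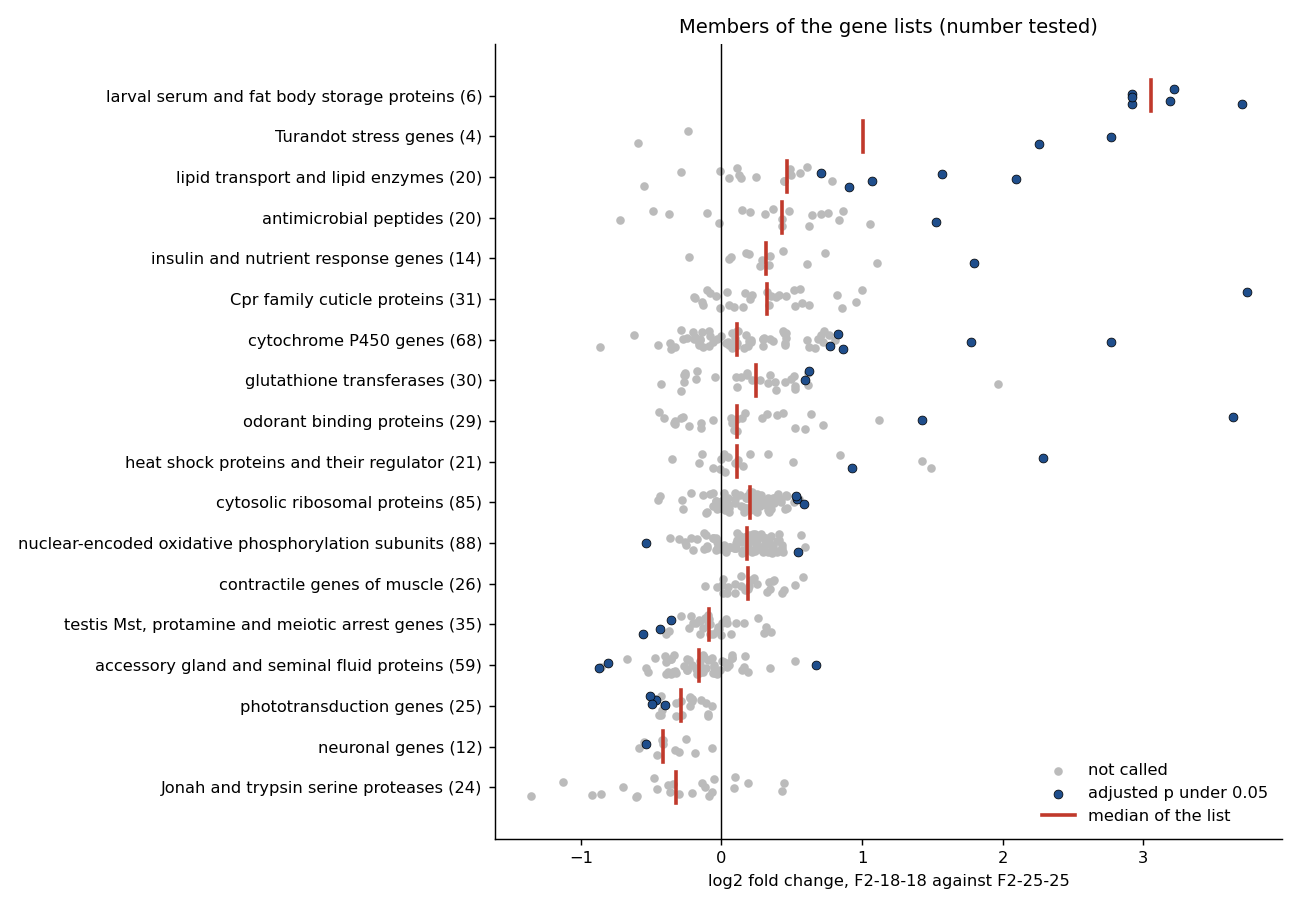
log2 fold change between F2-18-18 and F2-25-25 of each tested member of 18 gene lists, with the number tested in brackets; dark points passed an adjusted p of 0.05, grey points did not, and red lines are list medians. The 6 storage protein genes lie at 2.92 to 3.70, and all 25 phototransduction and all 12 neuronal genes lie below 0.

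The 21 called genes with 4 measured values in both groups were of low abundance. Of these, 16 rose (0.384% of the 4164 genes) and 5 fell (0.12%), and the groups did not overlap in 19. CG15820 had 31.8, 41.2, 37.7 and 37.8 against 3.28, 1.86, 17.5 and 12.7 (log2 fold change 2.16, limma, adjusted p = 0.0302). CG30026 had 83.1, 83.6, 95.7 and 79.5 against 17.9, 20.1, 40.5 and 45.8 (log2 fold change 1.51, limma, adjusted p = 0.00676), and CG16743 54.3, 48.1, 55.6 and 51.1 against 10.7, 14.5, 24.7 and 22.3 (log2 fold change 1.50, limma, adjusted p = 0.00876). In these genes replicates 3 and 4 of F2-25-25 lay between replicates 1 and 2 and the F2-18-18 libraries. Both lay above replicates 1 and 2 in 6 of the 16 genes that rose, and below them in 4, compared with 1052 and 1038 of all 4164 genes with 4 values. AANATL2, of the arylalkylamine N-acetyltransferase family, and CG30287 were of the former kind, with 68.4, 56.6, 53.4 and 48.3 against 16.8, 22.6, 46.1 and 42.8 and 9.79, 10.6, 11.3 and 14.4 against 1.05, 0.153, 6.51 and 3.04. In hoka, encoding a protein of septate junctions, the 4 F2-25-25 libraries were close together, with 125, 140.4, 115 and 116 against 56.7, 75.2, 62.9 and 66.1 (log2 fold change 0.91, limma, adjusted p = 0.00676). CG42759 had 44.7, 53.8, 35.6 and 38.4 against 22.9, 20.7, 21.7 and 22.9 (log2 fold change 0.89, limma, adjusted p = 0.021), and Tre1, a receptor that guides migrating germ cells in the embryo, 78.1, 76.5, 59.3 and 54.1 against 40.2, 39.7, 39.9 and 33 (log2 fold change 0.77, limma, adjusted p = 0.0213). CG11426, CG14132, CG45011, edl, CG15452, dgrn and CG1789 rose by log2 fold changes of 0.46 to 1.08, with overlap in dgrn and CG1789. Several of these calls were marginal, since of 24 alternatives CG15452 was not called in 19, CG1789 in 16 and edl in 11. The genes that fell besides Sfp96F were CG6106, CG7246, CG17141 and CG9458, of which CG6106 was not called in 13 of 24 alternatives and CG17141 in 10. In CG9458 F2-25-25 replicate 3 stood apart, with 15.3, 14.1, 18.2 and 24.7 against 29.5, 35.3, 83.8 and 30.4 (log2 fold change -1.11, limma, adjusted p = 0.0353). Without it the log2 fold change of CG9458 was -0.77, and it was not called (limma, adjusted p = 0.0943). Compared with F2-25-25 replicates 3 and 4 alone, a fit added after the values had been seen, limma called 0 of the 4164 genes, with 502 at an unadjusted p under 0.05 (12.1%). With replicates 1 and 2 alone it called 108, with 622 at an unadjusted p under 0.05 (14.9%). The first of these fits was adjusted over the 4164 genes only and the second over all 11314. The 0 and the 108 called are therefore not a like comparison of the 2 pairs. The 21 genes had the same direction with either pair. In the 19 without overlap this could not be otherwise, so it adds no support. The log2 fold change of CG15820 was 3.11 with replicates 1 and 2 and 1.20 with replicates 3 and 4.

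The median span from start to end of a gene was 2290 bases in the 250 annotated genes that rose, 4803 in the 77 that fell and 2475.5 in the genes tested. Spans of over 20000 bases were found in 1 of the genes that rose (0.4%) and in 17 of those that fell (22.1%), among them Nlg4, unc-13-4A and CG44153, against 962 of the 11180 annotated genes tested (8.6%). At levels of 100 to 300, where 109 genes rose and 32 fell, the medians were 1993 and 9000.5 against 3151 for the genes tested, and at levels of 300 to 1000 they were 3258.5 and 3468 against 5857. Above 1000, where 31 rose and 10 fell, they were 2586 and 2639.5 against 6170. The genes that fell thus had a longer median than those that rose at every level. Their median was longer than that of the genes tested only below a level of 300. The shares that rose were close between the large chromosome arms, from 2.10% on X to 2.45% on 2L. On the small chromosome 4, 5 of 77 genes tested fell (6.49%) and apolpp rose. The 5 were dpr7, Syt7, CG1909, CG32017 and CaMKII, of which CaMKII, the calcium-dependent protein kinase of the synapse, had 1004, 981, 1181 and 1167 against 1500 and 1515 (log2 fold change -0.48, limma, adjusted p = 0.0189). A called gene beside another called in the same direction was found in 21 of 252 genes that rose, in 11 pairs, and in 2 of 77 that fell. The pairs included Hsp23 and Hsp27, Dup99B and Obp99b, Gbp1 and Gbp2, CG8100 and Fbp1, LManI and LManII, and the ferritin genes Fer1HCH and Fer2LCH, whose annotated spans overlap.

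The same genes were then read in the previous generation, where 2660 genes were called between F1-18 and F1-25 (23.5%), with no library in common with the F2 comparison. Of the 252 genes that rose in F2-18-18, 200 had a log2 fold change above 0 in F1 (79.4%, against 51.6% of all genes tested), and of the 77 that fell 31 (40.3%). Called in F1 in either direction were 70 of the 252 (27.8%) and 22 of the 77 (28.6%), near the 23.5% of all genes. By direction, 66 of the 252 were called higher in F1, against 11% of all genes tested. Called lower in F1 were 21 of the 77, against 12.6% of all genes. The difference between the F2 and the F1 change was itself called in 541 of all genes tested (4.78%), in 67 of the 252 and in 21 of the 77, a contrast that contains the F2 change by which these genes were chosen. None of the 6 storage protein genes was called in F1, with log2 fold changes of 0.44 to 1.30, and the difference was called for Lsp1beta (2.75, limma, adjusted p = 0.0388) and Lsp2 (2.74, limma, adjusted p = 0.0357). For apolpp the F1 change was -0.62 (limma, adjusted p = 0.219) and the difference 2.71 (limma, adjusted p = 0.00724). For Hsp23 it was -0.18 (limma, adjusted p = 0.772), with a difference of 2.47 (limma, adjusted p = 0.0185). Lsp1beta, Lsp2, apolpp and Hsp23 were called in F2 and not in F1. Drs rose in both generations, by 0.90 (limma, adjusted p = 0.00543) in F1. Sfp96F and Acp33A fell in both, by 1.53 and 0.82 on the log2 scale in F1 (limma, adjusted p = 2.42e-06 and 0.000156). Dup99B went opposite ways, with -0.99 (limma, adjusted p = 0.000127) in F1 and a difference of 1.67 (limma, adjusted p = 0.000725). Mst84Dd, Mst87F and Mst84Da fell in F1 as well, with log2 fold changes of -0.58, -0.32 and -0.32. Of the photoreceptor and synaptic genes none named here was called in F1, and the difference was called for ninaC, Arr1, Nlg4, Aplip1, GABA-B-R1, GABA-B-R2 and Irk1.

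**Figure D4:**
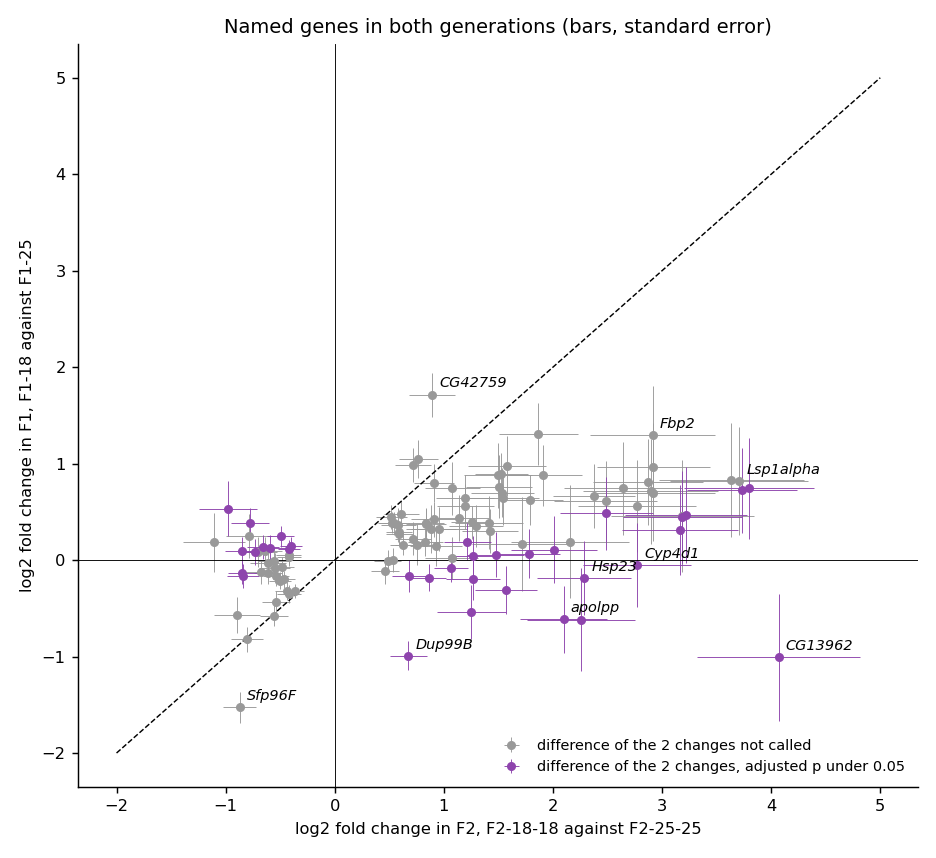
log2 fold change in F2 (x axis) and in F1 (y axis) of the named genes called in F2, with bars of 1 standard error and a dashed line of equal change; purple points are genes whose difference between generations passed an adjusted p of 0.05. The genes were chosen by their F2 change, so that their place against the dashed line is no result, with Lsp1alpha at 3.70 in F2 and 0.82 in F1.

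**Figure D5:**
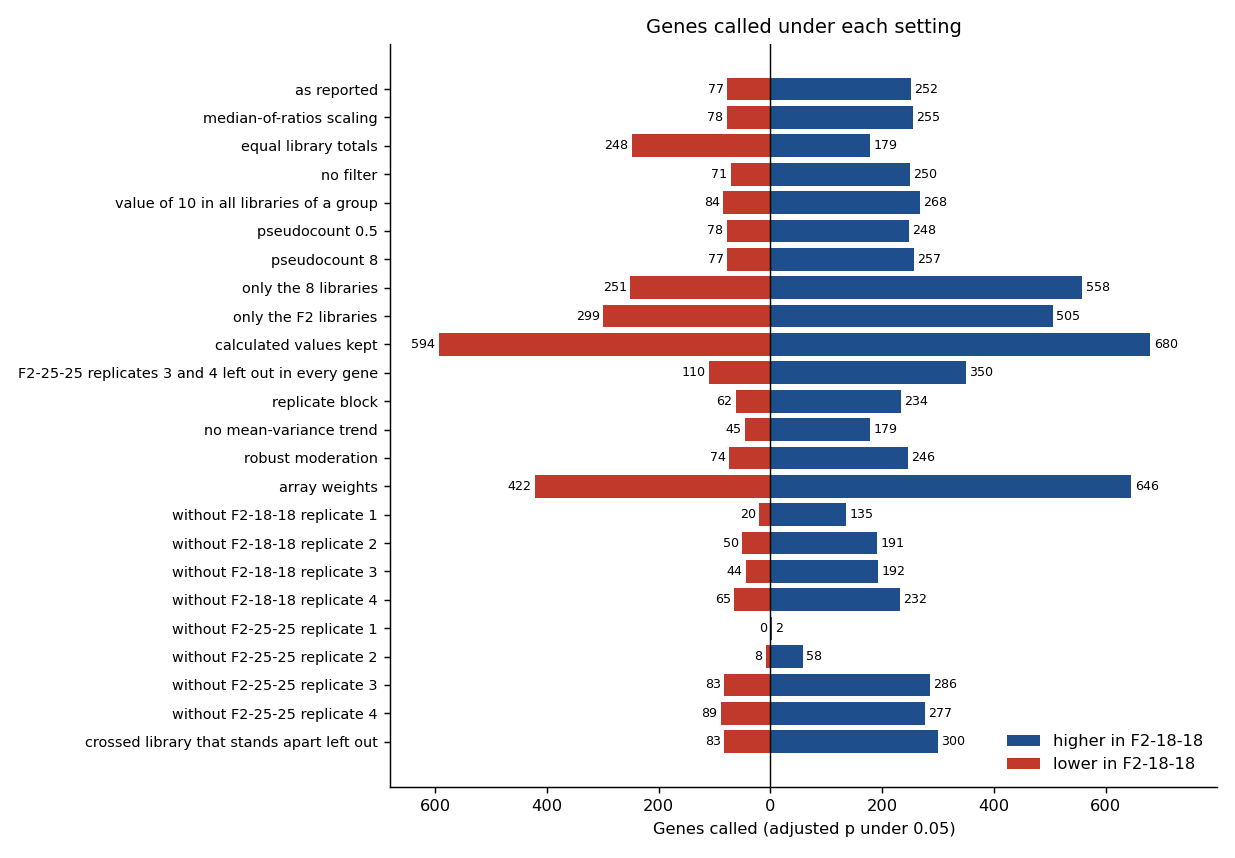
Number of genes called higher (right) and lower (left) in F2-18-18 under each setting of the fit. The count is 252 and 77 as reported, 2 and 0 without F2-25-25 replicate 1, and 680 and 594 with the calculated values kept.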

How the data were processed

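Males of both F2 groups, the F1 flies and the crossed F2 groups were profiled by total RNA sequencing after rRNA depletion. The deposited signal values are normalised counts per gene that the authors made from reads cleaned with SortMeRNA and Trimmomatic 0.32, aligned with STAR 2.4.0f1 to release 6 of the fly genome, counted by strand with HTSeq 0.6.1 and scaled by TMM in edgeR. The values are not whole reads. Aligned reads per library, which the study lists and which differ several-fold within F2-18-18, were not used here. In 7150 genes, F2-25-25 replicates 3 and 4 equalled the average of replicates 1 and 2 plus an integer (tolerance 0.0001) and were left out. log2(value + 2) was fitted with limma 3.58.1 in R 4.3.3, with 1 mean for each of the 6 conditions over 22 libraries, a mean-variance trend and Benjamini-Hochberg adjustment over 11314 genes, two-sided. 2 samples without values were not analysed here. Symbols were matched for 11888 of 12024 genes to the Ensembl annotation of release 6, from which coordinates were taken. Named genes were the 12 largest changes in each direction among called genes without overlap, every called gene with 4 values, and from each list up to 4 called genes in each direction and abundant uncalled examples, while others are given as chosen late. The members of the comparison and the gene lists were chosen with earlier results of these data known. The fit was tested on simulated data. The alternatives covered scaling, filter, pseudocount, the libraries fitted, the calculated values, the replicate block, the moderation and leaving out each library.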

Additional observations from a re-analysis of the deposited data

Results flagged for a closer look

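In 11 of 146 groups of 4 libraries of the named genes, the highest or lowest library stood apart by a gap, as a share of the range of its group, beyond the critical value of Dixon's test. Chance alone would flag about 5% of such groups. In F2-25-25 replicate 3 was the high library for TotC, TotB, TotX and CG9458, with a gap of 0.9903, 0.9274, 0.9027 and 0.8936 of the range. Replicate 4 was low for Tre1 (0.9324) and replicate 2 high for CG1789 (0.8343). In F2-18-18 replicate 1 was low for ninaC (0.9276) and VGlut (0.8656), replicate 4 low for GABA-B-R2 (0.8939), replicate 2 low for LManII (0.8677) and replicate 2 high for Drs (0.8628).

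For 34 of the 123 named genes the change in F2 differed from that in F1 by a test of the difference itself (limma, adjusted p under 0.05). Of all genes tested 4.78% did. Of the named genes 113 were called in F2, and the difference contains the F2 change by which most were chosen. The number flagged is therefore no result. The differences below are log2 fold changes in F2 minus those in F1. Among storage, lipid and secreted proteins they were 2.75 for Lsp1beta, 2.74 for Lsp2, 2.71 for apolpp, 1.88 for Npc2g, 1.22 for Idgf6 and 3.01 for Cpr49Ac. Genes with a CG number had 5.08 for CG13962, 3.06 for CG34166, 2.85 for CG5773, 1.90 for CG31778, 1.15 for CG5966 and 0.84 for CG45011. For stress and detoxification genes they were 2.87 for TotB, 2.47 for Hsp23, 2.82 for Cyp4d1, 1.71 for Cyp309a1 and 1.05 for Cyp4e2. Enzymes and membrane proteins had 1.42 for Mal-A5, 1.02 for Cth, 1.79 for LManI, 1.46 for LManII and 2.01 for Tsp42Ek, and Dup99B of the ejaculatory duct had 1.67. Differences below 0 were found for genes of eye and nervous system, -0.74 for ninaC, -0.55 for Arr1, -0.94 for Nlg4, -0.71 for Aplip1, -0.71 for GABA-B-R1, -0.79 for GABA-B-R2 and -0.54 for Irk1. They were also below 0 for Pdzd8 (-0.67), CG44153 (-0.82), CG17364 (-1.16) and CG6106 (-1.51).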

How the results depend on the processing

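The 329 genes kept their direction in every alternative in which they were fitted, which was nearly fixed by choosing them for this change. The number called did not hold. Scaled to equal library totals, 248 genes were lower and 41 of the genes with 4 measured values were called. With only the 8 libraries of the comparison 809 genes were called (558 higher, 251 lower, 37 with 4 values), and with only the F2 libraries 804 (505, 299 and 45). Keeping the calculated values gave 1274 (680, 594 and 78), and array weights 1068 (646, 422 and 170). Leaving F2-25-25 replicates 3 and 4 out of every gene called 108 genes with 4 values, with 622 at an unadjusted p under 0.05 in limma. Leaving out replicates 1 and 2 called 0, with 502 at an unadjusted p under 0.05 in limma. The former was adjusted over 11314 genes and the latter over 4164, so these counts called are not alike. Without the mean-variance trend 45 genes were lower. Without the crossed library that stood apart 37 genes with 4 values were called. The last 2 fits that left out libraries other than single replicates of the comparison, replicates 1 and 2 together and the crossed library, were chosen after seeing the data.

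Leaving out each library in turn called 2 to 369 genes, 2 to 286 of them higher and 0 to 89 lower, and 1 to 47 of those with 4 values. The lowest counts were without F2-25-25 replicate 1, where 2 genes passed and 1185 had an unadjusted p under 0.05, and the F2-25-25 mean of 7150 genes then rested on 1 library, assumed to vary like the other groups. The samples share replicate numbers, but same-numbered samples did not deviate together (mean r = -0.07 across genes, against 0.03 for other numbers), and with the replicate number as a block 296 genes were called, 258 of them among the 329. Over these fits the log2 fold change ranged from -1.01 to 0.49 for TotC, from -0.69 to 0.53 for TotX and from -0.24 to 0.0224 for Fst, and changed sign in them without F2-25-25 replicate 3 (TotC, TotX) and without F2-18-18 replicate 2 (Fst). The changes of TotC and TotX turned to 0.52 and 0.80 with replicates 3 and 4 left out and to 0.15 and 0.36 with array weights. The cause of these shifts was not tested beyond the libraries left out.

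The values are not raw counts, and the aligned reads per library that the study lists do not give the reads behind a normalised value. Low values moved in steps of 0.835 to 1.54 in F2-18-18 and 1.30 in F2-25-25 replicate 2, and no clear step was seen in the 3 other F2-25-25 libraries, so intervals from counting could not be given.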

Other observations

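The summed share of the 6 storage protein genes also varied within groups of the series that are outside the comparison. It was 1.06% to 1.98% of all values in F1-18 and 0.590% to 1.45% in F1-25. In the crossed group of 3 libraries it was 1.58% to 2.01%, and in the crossed group of 4 it ranged from 0.229% to 2.53%, with replicate 4 at the upper end.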
